A study of Rattus norvegicus with 11 samples.

Results

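Messenger RNA of rat ASML cells with CD44 knocked down was compared with that of ASML wild type cells, 1 array each, which are 2 of the 11 arrays of the series. Both were chosen by their titles in the sample labels. ASML is a rat line that the labels describe as pancreatic adenocarcinoma. The 2 arrays were both labelled base line, and all cell lines of the series were kept in RPMI medium with 10% FCS (fetal calf serum) and 750 µg/ml of G418, an antibiotic used to select transfected cells, so the wild type cells had the same drug in their medium. Total RNA was measured on 1-colour Agilent arrays. The other 9 arrays held an endothelial line (EC) and an endothelial fibroblast line (RF), each untreated, after exosomes of the AS pancreatic adenocarcinoma line and after exosomes of AS made to express tetraspanin 8 (ASTspan8), and RNA of ASTspan8 exosomes themselves. The series as a whole asks what tumour exosomes do to host cells, and the ASML pair compares a tumour line labelled CD44 knock-down with its wild type. With 1 array each, the part of CD44 in a difference cannot be told apart from other differences between the 2 cultures. The labels do not say how CD44 was knocked down, whether the knock-down line is 1 clone, or which CD44 isoform was targeted.

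CD44 is a transmembrane adhesion receptor whose main ligand is hyaluronan, a polysaccharide of the matrix around cells. Its tail binds ezrin, radixin and moesin, which link it to actin, and alternative exons give variant forms that are found in many metastasising carcinomas. On tumour cells it is known to sit in membrane complexes with the tetraspanin Tspan8, the adhesion molecule Epcam and claudin 7.

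Values are log2 intensity, and a difference is the knock-down value minus the wild type value, so that 1 is a 2-fold higher level in the knock-down. Array medians of all 11 arrays lay within 0.08 log2. With 1 array against 1 there is no replicate check on any difference below, no p-value can be given, and the number of arrays limits the precision. The only measure of spread in the series comes from pairs of other groups. The 2 arrays of EC after ASTspan8 exosomes differed with an SD of 0.144 over 18619 probes, and 9 probes (0.0483%) were at least 2-fold apart. The 2 arrays of exosome RNA differed with an SD of 0.395, and 358 probes (1.92%) were at least 2-fold apart. The ASML arrays differed with an SD of 0.93, and 3547 probes (19.1%) were at least 2-fold apart, 1798 of them (9.66%) higher and 1749 (9.39%) lower in the knock-down. That is more than either pair, but neither pair measures how far 2 cultures of ASML differ. Of the 358 probes that parted the exosome arrays, 55 also parted the ASML arrays (15.4% of the first set and 1.55% of the second), and 21 of the 55 had the same sign.

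Cd44 itself was measured by 4 probes annotated to the same transcript record. On the brightest probe it lay at 13.56 in wild type and 12.30 in the knock-down, a difference of -1.26, so that 41.8% of the wild type level was left. That probe read between 13.70 and 13.85 on the 4 EC arrays, between 12.94 and 13.89 on the 3 RF arrays, and 11.11 and 6.02 on the exosome arrays. The knock-down array was therefore below wild type and below all EC and RF arrays, yet well above the floor of 5.96. The same probe parted the duplicate exosome arrays by more than it parted the ASML arrays. The 3 dimmer probes did not follow it. They read 8.28 and 8.79 (a difference of 0.51), 7.43 and 8.77 (1.34), and 6.07 and 5.96 (-0.11) in wild type and knock-down. The first of the 3 read from 7.12 to 7.80 on the EC and RF arrays, and the second of the 3 from 6.23 to 7.26, which is below both ASML arrays in each case. The sources used here do not give the exons that the probes bind, so the label is met by the brightest probe alone, and 2 of the dim probes go against it. Cd44 stood at rank 567 from the lowest of 11069 genes, so many genes differed by more than the targeted one.

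Of the 11069 genes (each read from the probe that was brightest on average), 2173 (19.6%) were at least 2-fold apart, 1176 (10.6%) higher and 997 (9.01%) lower in the knock-down. The median over all genes was -0.01. Among the 6902 genes above log2 9 on the brighter ASML array, 1713 (24.8%) were at least 2-fold apart, 909 (13.2%) higher and 804 (11.6%) lower. The filter on dim probes let 10498 genes in through at least 1 of the other 7 groups, and of those 1071 (10.2%) were higher and 869 (8.28%) lower. A further 194 genes passed through the wild type array alone, of which 76 were lower, and 156 passed through the knock-down array alone, of which 87 were higher. Those 2 sets had to differ in that direction. Just inside the 2-fold limit lay Thoc1 and Mef2d (both 1.00) and C1h9orf85 and Chordc1 (both -1.0). Just outside it lay Bex3 and Vwf (both 0.99) and Armc10 and Fcgbpl1 (both -0.99). The other probes of Vwf gave -0.43 and -1.35.

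**Figure D1:**
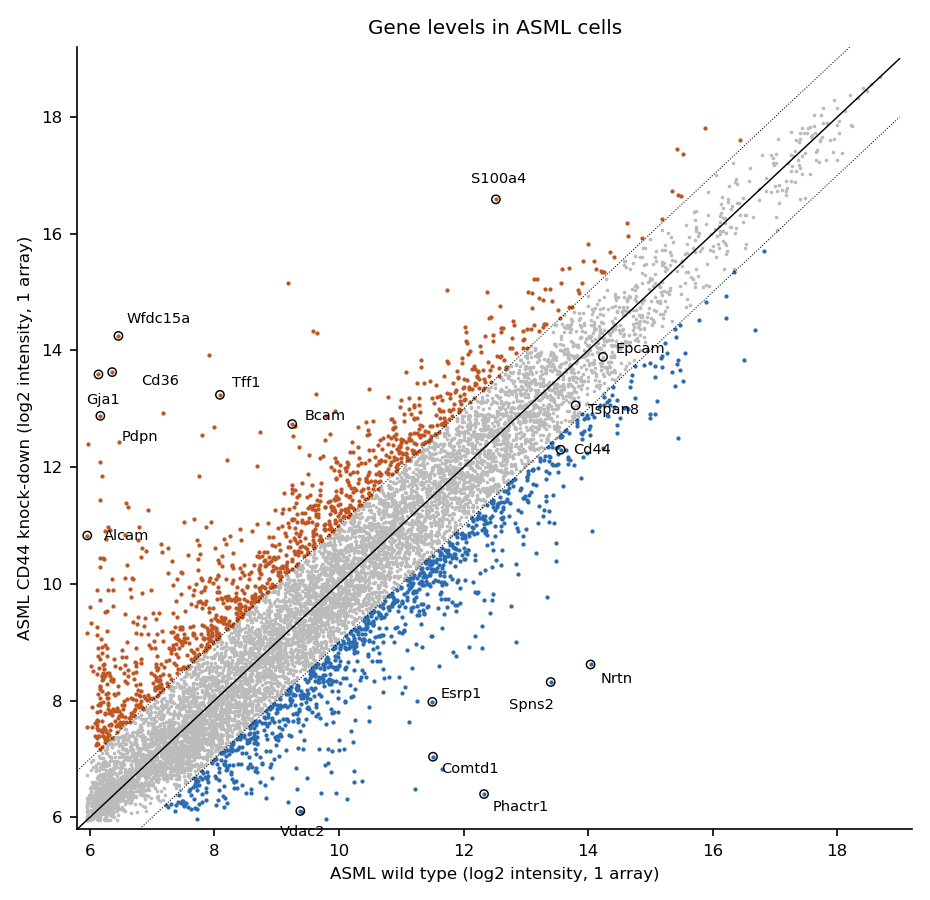
Each point is 1 of 11069 genes, with its log2 intensity on the ASML wild type array (x axis) and on the ASML CD44 knock-down array (y axis). The solid line marks equal levels and the dotted lines a 2-fold difference. Orange points (1176) are at least 2-fold higher and blue points (997) at least 2-fold lower in the knock-down, and Cd44 at 13.56 and 12.30 lies just past the lower dotted line.

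The cells carried an epithelial profile on both arrays. Of 34 measured epithelial junction and keratin genes, 28 lay above log2 9 in wild type and 26 in the knock-down. Of 26 measured fibroblast markers, 6 did so on each array. In the knock-down, 6 of the 26 (23.1%, against 10.6% of all genes) were at least 2-fold higher (Col6a1, Col6a2, S100a4, Col3a1, Col5a2 and Sparc). Another 2 (7.69%, against 9.01% of all genes) were lower (Loxl1 and Bgn). The median was 0.09 over the list and 1.91 over its 8 genes above log2 9 on the brighter array. The fibroblast genes Dcn (6.19 and 6.27), Lum (6.36 and 6.39), Col1a1 (6.43 and 6.24) and Postn (6.06 and 5.97) lay near the floor on both. The part of other cells in these differences was not tested. Endothelial markers above log2 9 were 3 and 2 of 12, neuronal and glial markers 2 and 2 of 11, and leukocyte markers 1 and 0 of 10. The pan-leukocyte gene Ptprc was removed as dim. Of 36 listed pancreatic markers, 21 were removed as dim, among them the enzymes Prss1, Cpa1, Cela1 and Pnlip and the hormone genes Ins2 and Gcg. Of the 12 measured, 4 lay above log2 9 on each array. The pancreatic transcription factor Pdx1 (11.51 and 10.25) and the duct keratin Krt19 (15.56 and 13.96) were well above the floor on both arrays.

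Among genes for membrane partners of CD44, the RNA levels of Tspan8, Epcam, Cldn7 and Cd151 were somewhat lower, and those of 3 others were higher. Tspan8 lay at 13.80 in wild type and 13.06 in the knock-down (-0.74), Epcam at 14.24 and 13.89 (-0.35), Cldn7 at 14.33 and 13.73 (-0.60) and the tetraspanin Cd151 at 11.90 and 11.71 (-0.19). None of those 4 reached 2-fold. The integrin chain Itgb4, the laminin receptor of hemidesmosomes, was higher by 1.68 (13.22 and 14.90), and Itgb1, the most widely shared beta chain, by 1.15 (12.02 and 13.17, with its other probe at 0.99). The tetraspanin Cd81, an abundant exosome protein, was higher by 1.41 (12.40 and 13.81). Over the 12 measured genes of the complex list, Cd44 included, 3 (25%, against 10.6% of all genes) were higher. The 1 lower gene (8.33%, against 9.01%) was Cd44 itself, and the median was -0.21.

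Genes that make, cut or bind hyaluronan and those that tie CD44 to actin differed little. None of the 10 measured was 2-fold apart, the median was -0.23, and the values ran from -0.61 to 0.00. The linkers ezrin (Ezr, 15.22 and 15.02), radixin (Rdx, 12.50 and 12.46) and moesin (Msn, 10.03 and 9.56) were bright on both arrays, as was the hyaluronidase Hyal2 (12.67 and 12.41). The hyaluronan synthase Has1 was dim (7.72 and 7.41), and Has2 and Has3 were removed as dim. Of the other hyaluronan receptors listed, Hmmr and Lyve1 were removed as dim too, and Stab1 had no named probe.

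Of the 30 genes most in excess in the knock-down, by differences from 4.18 to 7.79, 22 lay under log2 7 in wild type. A value that close to the floor has no measured lower level, so such differences give neither an exact fold nor an exact order. The largest difference was that of Wfdc15a, a small secreted protein with a WAP domain, at 6.46 in wild type and 14.25 in the knock-down, with the other 9 arrays between 6.31 and 7.21. The gap junction protein Gja1 followed (6.14 and 13.59), then the fatty acid receptor Cd36 (6.36 and 13.63, with its other probe at 5.11) and the mucin-type glycoprotein Pdpn (6.17 and 12.88, other probe 1.71). All 4 lay near the floor in wild type and were bright in the knock-down. In the list of gap junction proteins and scavenger receptors, which also holds Pdpn, 4 of 11 measured genes were higher (36.4%, against 10.6% of all genes). A further 3 were lower (27.3%, against 9.01%). Gja1, Cd36 and Pdpn are among the 4. This list, like all the others, was chosen with earlier results of these data known, so its share of higher genes is not a separate result. The list's median was 0.07, and 4.21 over its 6 genes above log2 9 on the brighter array. Only 2 genes of the list were above log2 9 in wild type, against 5 in the knock-down. Genes that passed this cut through the knock-down alone had to be higher, so the second median leans upward by selection. Of the 30, 7 had several kept probes, and in all 7 each probe was at least 2-fold higher.

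Several genes of the set code for surface or matrix proteins. Cdh6, a classical cadherin, lay at 5.97 and 12.39, with the other 9 arrays between 6.02 and 6.45, so it was bright on the knock-down array and on no other. Ptprd, a receptor-type tyrosine phosphatase, lay at 6.47 and 12.44 (difference 5.97, other probe 4.27). Alcam, an adhesion molecule of the immunoglobulin type, lay at 5.96 and 10.83, a wild type value at the floor. The collagen VI chains Col6a1 (6.17 and 12.09) and Col6a2 (9.58 and 14.34) were both higher, while the partner chain Col6a3 lay at 6.39 and 6.38. The tetraspanin Tspan13 lay at 7.99 and 12.69, and Ltbp1, which holds latent TGF-beta in the matrix, at 6.33 and 10.93. The guidance ligand Sema3a lay at 6.16 and 10.45 and the adhesion receptor Adgrl2 at 7.81 and 12.56 (other probe 3.84).

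Other members of the set are best known from mucosa, skin or testis. The trefoil peptides Tff1 (8.09 and 13.24) and Tff2 (6.26 and 10.77), which mucous epithelia secrete, were both higher. The homeobox gene Rhox5, active in testis and in many rodent tumours, lay at 9.19 and 15.15, but it parted the exosome arrays as well (11.32 and 16.49). The protease inhibitor Csta lay at 6.57 and 10.84 and the calcium-binding protein Ocm at 9.65 and 14.30 (other probe 3.96). Genes of the germ line and of many tumours, Magea4 (6.22 and 10.44), Mageb1 (6.23 and 10.42) and Tex101 (6.61 and 11.32), were higher as well. For 16 of the 30 genes, all other 9 arrays lay under log2 9, so that the knock-down array alone, or with ASML wild type, was bright. For 4 of the 30 all other 9 arrays were above log2 9, among them Gja1 (11.91 to 13.84) and the insulin receptor adaptor Grb14 (wild type 6.79, knock-down 10.97, other arrays 12.24 to 14.91).

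Of the 30 genes most in deficit, by differences from -5.93 to -3.01, 13 lay under log2 7 in the knock-down, where the fold and the order are again not exact. Phactr1, a regulator of actin and of protein phosphatase 1, lay at 12.33 in wild type and 6.40 in the knock-down. The neurotrophic factor Nrtn (14.04 and 8.62) and Spns2, which exports sphingosine 1-phosphate from cells, (13.40 and 8.32) came next. The other 9 arrays read 6.05 to 6.25 for Phactr1 and 6.14 to 7.16 for Spns2, so both were bright in ASML wild type and nowhere else.

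Some genes of that set code for metabolic enzymes and transporters. Fbp2, the muscle form of fructose bisphosphatase, lay at 11.65 and 6.83. The urea cycle enzymes Ass1 (9.40 and 6.09) and Arg1 (11.88 and 8.76) were both lower, and so were the water channels Aqp1 (12.84 and 9.01) and Aqp9 (10.24 and 6.60). The transferrin receptor Tfrc, which takes up iron, lay at 14.06 and 10.90 (difference -3.16, other probe -1.78). Comtd1 (11.51 and 7.04) and Vdac2, a channel of the outer mitochondrial membrane, (9.38 and 6.11) had lower values in the knock-down than on any other array. Surface and signalling proteins were also lower: the kidney-type cadherin Cdh16 (11.22 and 6.49), the proton-sensing receptor Gpr4 (9.80 and 5.98), the adhesion receptor Adgrg1 (12.76 and 9.63, other probe -1.89), the serine protease Hpn (9.71 and 6.41), the vasodilator peptide Adm (13.48 and 10.40) and F3, tissue factor of the clotting cascade (12.30 and 9.28). Hspa1b (13.34 and 9.78) has a near-identical copy, so its probe may read both. Of the 30, 4 had several kept probes, and for 3 of the 4 each probe was at least 2-fold lower. The exception was Prb1, with -3.09 and -0.72.

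**Figure D2:**
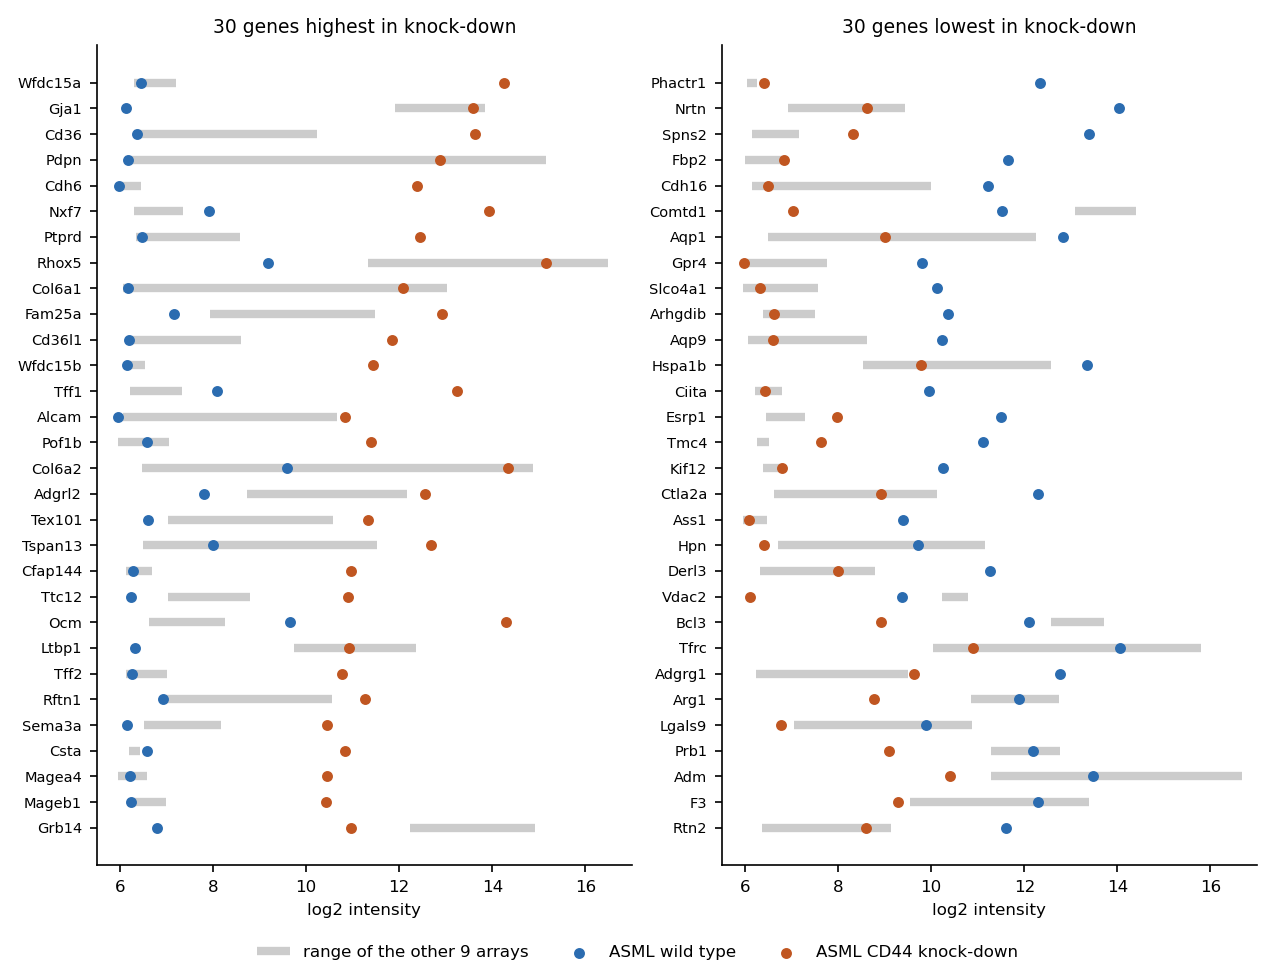
Log2 intensity (x axis) of the 30 genes with the largest positive difference (left) and the 30 with the largest negative difference (right) among genes above log2 9 on the brighter ASML array. Blue points are ASML wild type, orange points ASML CD44 knock-down, and the grey bar spans the other 9 arrays. Gja1 and Grb14 are low in wild type and bright elsewhere, whereas Wfdc15a and Cdh6 are bright in the knock-down and on no other array.

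Several of those genes lie side by side in the rat gene order of the RefSeq table (GRCr8), with no protein-coding gene between them. This holds for Wfdc15a and Wfdc15b (7.79 and 5.28), Cd36 and Cd36l1 (7.27 and 5.65), Col6a1 and Col6a2 (5.92 and 4.76), Tff1 and Tff2 (5.15 and 4.51), and Comtd1 and Vdac2 (-4.47 and -3.27). The first 4 pairs are related genes, and whether a probe of one also binds the transcript of the other was not tested. Gpr4 (-3.82) and Rtn2 (-3.01) have 3 genes between them.

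Part of the epithelial genes were lower in the knock-down, and most of the list stayed bright. Of 34 junction and keratin genes, 12 were at least 2-fold lower and 0 higher, with a median of -0.77 against -0.01 over all genes (9.01% of all genes were lower). Crb3, which sets apical polarity, lay at 12.22 and 9.85. The simple-epithelium keratins Krt18 (16.68 and 14.35), Krt7 (15.40 and 13.39), Krt19 (15.56 and 13.96) and Krt8 (12.72 and 11.56) were all lower, and so were the tight junction proteins Cldn4 (13.38 and 11.25) and Cldn1 (10.36 and 8.40). E-cadherin, Cdh1, lay at 14.26 and 13.45 and did not reach 2-fold. Fewer epithelial cells in the culture and less of these RNAs per cell cannot be told apart in bulk RNA, here or for any other list.

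Of 22 regulators and effectors of the epithelial state, 8 (36.4%, against 9.01% of all genes) were lower. Only 1 (4.55%, against 10.6%) was higher, and the median was -0.54. The splicing factor Esrp1, which makes epithelial isoforms of many transcripts including that of CD44, lay at 11.50 in wild type and 7.98 in the knock-down, above the other 9 arrays (6.44 to 7.28) in both. The vesicle protein Rab25 (12.24 and 9.86), the transcription factor Grhl3 (9.34 and 7.19), the adaptor Ap1m2 (9.92 and 7.80) and the membrane protease St14 (15.52 and 13.48) were lower. Spint2, an inhibitor of such proteases, was the higher one (13.55 and 14.56).

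Of 27 mesenchymal genes, 5 (18.5%, against 10.6% of all genes) were higher and 0 lower. The median was 0.09 over the list, most of which was dim, and 0.59 over the 7 genes above log2 9 on the brighter array. Of the 7, 5 were above log2 9 in wild type and 7 in the knock-down, so this cut favours higher genes. Besides Pdpn the higher genes were the calcium-binding protein S100a4 (12.52 and 16.59), the collagen Col3a1 (6.37 and 9.90), the matrix protein Sparc (6.34 and 8.36) and the transcription factor Zeb1, a repressor of epithelial genes (6.61 and 8.53). Vimentin, Vim, was bright and slightly lower (13.10 and 12.70), and fibronectin, Fn1, lay at 13.14 and 13.43. Among 15 cadherins and protocadherins, 2 (13.3%) were higher (Cdh6, and Pcdh18 at 6.32 and 8.42). Cdh16 was the 1 lower gene (6.67%, against 9.01% of all genes).

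Other surface molecules differed in both directions. Of 26 integrins and immunoglobulin-type adhesion molecules, 6 (23.1%) were higher and 3 (11.5%) lower, where all genes gave 10.6% and 9.01%. The laminin receptor Bcam lay at 9.25 and 12.74, whereas Itgb6, the epithelial integrin chain that activates TGF-beta, lay at 12.33 and 9.73. Of 24 tetraspanins, 2 were higher (Tspan13 and Cd81) and 1 was lower (Tspan17, 9.89 and 7.14), shares of 8.33% and 4.17% that lie under those of all genes. In the machinery that forms and releases exosomes, 7 of 28 genes (25%) were higher and 3 (10.7%) lower. Vps25, a subunit of the ESCRT-II sorting complex, lay at 11.29 and 13.19 (other probe 1.51), and the raft protein Flot1 at 11.33 and 12.71, while the recycling GTPase Rab11a lay at 11.16 and 9.59 and Chmp4c, which cuts membrane necks, at 11.68 and 10.20.

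Of 29 matrix proteases and inhibitors, 4 were at least 2-fold higher, a share of 13.8% that is near the 10.6% of all genes. The 4 were inhibitors: Serpinb2, of urokinase (6.02 and 9.33), Reck, a membrane-bound inhibitor (7.46 and 9.83, other probe 0.93), Timp1 (12.41 and 14.55) and Timp2 (15.87 and 17.82). The 1 lower gene was the membrane protease Adam10, a known sheddase of CD44 (11.41 and 10.27). The list's median was 0.15.

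The list with the largest share of higher genes was that of ATF4, a transcription factor that cells use when amino acids run short or the endoplasmic reticulum is under stress. Of 29 measured genes, 15 (51.7%) were at least 2-fold higher, 2 were lower, and the median was 1.00, where 10.6% of all genes were higher. Like every list here, it was chosen with earlier results of these data known, so its share is not a separate result. The same holds for the NF-kappaB and antioxidant lists below. Atf4 itself lay at 13.70 in wild type and 15.42 in the knock-down, and its relative Atf5 at 11.50 and 13.19. Targets in amino acid supply were higher: the cystine carrier Slc7a11 (7.94 and 11.06, other probe 0.90), the proline enzyme Pycr1 (13.10 and 14.98), asparagine synthetase Asns (11.57 and 13.20) and the carrier Slc38a2 (12.60 and 13.91). So were regulators that ATF4 induces, Nupr1 (10.48 and 13.34), the pseudokinase Trib3 (9.52 and 12.21), the stress hormone Gdf15 (7.37 and 9.27), the glutathione-degrading enzyme Chac1 (9.39 and 10.90) and Ddit3, also called CHOP (12.45 and 13.74). The lower genes were the mTORC1 inhibitor Ddit4 (12.08 and 10.59) and the glutamine carrier Slc1a5 (12.48 and 11.44). The serine synthesis genes Phgdh, Psat1 and Psph, which are in the list, differed by less than 2-fold. Chaperones of the endoplasmic reticulum, which other branches of the stress response induce, did not share this direction. Of 26 genes, 2 (7.69%) were higher and 3 (11.5%, against 9.01% of all genes) lower, with a median of -0.29.

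The promoters of those genes were searched for the letters TGATGNAA, the C/EBP-ATF response element that ATF4 binds. The windows were RefSeq's (GRCr8), from 250 bases before to 50 after each gene's start, and both strands were read. Of 27 list genes with a window, 7 held the element: 6 of the 15 higher genes, 0 of the 1 lower gene with a window and 1 of the 11 others. It occurred in 3.98% of all 33469 windows and in 2.28% of the windows of measured genes. The 4 sequences below are shown because their genes are among the higher ones, and the last because its gene was not (Slc1a4, a neutral amino acid carrier, difference 0.38). Capitals mark the element, and each sequence is given on the strand on which the element reads.
Nupr1 (chr1:190645929-190645976, plus strand): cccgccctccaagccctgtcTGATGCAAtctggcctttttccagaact
Trib3 (chr3:161275527-161275574, plus strand): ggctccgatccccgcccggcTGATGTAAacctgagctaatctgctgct
Pycr1 (chr10:106420916-106420963, minus strand): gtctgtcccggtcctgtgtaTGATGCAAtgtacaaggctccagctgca
Chac1 (chr3:126795944-126795991, minus strand): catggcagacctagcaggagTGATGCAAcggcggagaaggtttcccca
Slc1a4 (chr14:98761770-98761812, plus strand): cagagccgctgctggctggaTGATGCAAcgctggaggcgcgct

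Genes of NF-kappaB, the transcription factor family behind many inflammatory genes, lay in the opposite direction. The list holds its subunits and the genes it induces to restrain itself. Of 20 measured genes, 8 (40%, against 9.01% of all genes) were at least 2-fold lower and 0 higher. The median was -0.56, and -1.14 over the 15 genes above log2 9 on the brighter array. Of the list, 14 genes were above log2 9 in wild type and 10 in the knock-down, so this cut favours lower genes. The nuclear co-factor Bcl3 lay at 12.09 and 8.92, and the knock-down value was below all other arrays (12.57 to 13.72 on the 9 others). The subunit gene Nfkb2 (12.18 and 9.87), its activating kinase Map3k14 (9.20 and 7.42), the ubiquitin ligase Birc3 (9.52 and 7.86) and the inhibitors Nfkbie (10.81 and 8.41), Nfkbib (10.10 and 8.55) and Nfkbia (12.43 and 11.06) were lower. The subunits Rela and Nfkb1 differed by less than 2-fold.

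A kappa-B element was found in 9 of the 17 promoter windows of that list, in 4 of the 7 lower genes and 5 of the 10 others, so lower genes did not stand out among members. It occurred in 7.51% of all windows and in 10.1% of those of measured genes. Shown are 3 of the 4 lower genes that held the element, which is in capitals, and the one not shown is Nfkbie.
Bcl3 (chr1:88613564-88613613, minus strand): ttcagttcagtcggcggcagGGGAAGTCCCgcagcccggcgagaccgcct
Nfkb2 (chr1:255108334-255108383, plus strand): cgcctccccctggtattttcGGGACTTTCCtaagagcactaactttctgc
Nfkbia (chr6:78597074-78597123, plus strand): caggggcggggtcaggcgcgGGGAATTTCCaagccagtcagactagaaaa

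Of 47 measured chemokines, cytokines and receptors, 7 were lower and 2 higher. The 14.9% lower is not far from the 9.01% of all genes, and the median was 0.06. The lower ones included the growth factor of granulocytes and macrophages Csf2 (9.19 and 6.27) and the neutrophil attractants Cxcl2 (10.48 and 7.65), Cxcl3 (15.48 and 13.66) and Cxcl1 (11.44 and 10.00). Of 29 genes of MHC and antigen processing, 11 (37.9%) were lower and 0 higher (median -0.29). Ciita, the master regulator of MHC class II genes, lay at 9.95 and 6.42, its target Cd74, the invariant chain, at 12.43 and 9.50, and the class II gene RT1-Db1 at 10.20 and 8.06 (other probe -2.52). RT1 genes are close relatives, so their probes may read more than the gene named. Of 32 interferon-induced genes, 8 (25%) were lower and 1 higher (median -0.26), among the lower ones the antiviral genes Oasl2 (9.44 and 7.33) and Isg15 (13.33 and 11.42). Complement and acute phase genes differed from these lists: 4 of 20 (20%, against 10.6% of all genes) were higher and 0 lower, with a median of 0.53, led by the iron-binding Lcn2 (8.97 and 11.26) and haptoglobin, Hp (8.47 and 9.85).

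Of 45 measured antioxidant and glutathione genes, 18 (40%, against 9.01% of all genes) were at least 2-fold lower and 4 higher. The other 23 were less than 2-fold apart, and the median was -0.66. The microsomal transferase Mgst1 lay at 12.45 and 9.73, the epithelial glutathione peroxidase Gpx2 at 16.51 and 13.83, and the glutathione transferases Gsta1 and Gsta3 at 10.26 and 7.67 and at 9.64 and 7.73. The quinone reductase Nqo1 lay at 10.97 and 8.41, and thioredoxin reductase, Txnrd1, at 11.04 and 9.21. Enzymes of both steps of glutathione synthesis were lower by a little over 2-fold, Gclc at 12.20 and 11.01 and Gss at 11.19 and 10.01. The higher genes were the transferase Gsta4 (8.20 and 12.12), the extracellular superoxide dismutase Sod3 (7.26 and 10.61), Slc7a11 and Mgst2 (13.27 and 14.41).

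The antioxidant response element, the site of the stress factor Nrf2, was searched as TGACNNNGC on both strands of the same windows. It was present in 13 of 37 list genes with a window, in 7 of the 16 lower genes, 0 of the 2 higher genes and 6 of the 19 others, against 12.1% of all windows and 15.4% of those of measured genes. TGACNNNGC can hold the AP-1 letters TGACTCA, as it does in the peroxiredoxin gene Prdx1 (difference -1.18). These 4 are shown because they belong to lower genes, with the element in capitals.
Gpx2 (chr6:101230018-101230066, plus strand): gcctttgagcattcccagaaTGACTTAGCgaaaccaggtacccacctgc
Gsta1 (chr9:31216483-31216522, minus strand): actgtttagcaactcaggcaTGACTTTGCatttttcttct
Txnrd1 (chr7:22755954-22756002, plus strand): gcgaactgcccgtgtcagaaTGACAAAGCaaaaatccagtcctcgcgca
Prdx1 (chr5:135383751-135383799, minus strand): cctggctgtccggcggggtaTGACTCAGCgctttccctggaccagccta

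**Figure D3:**
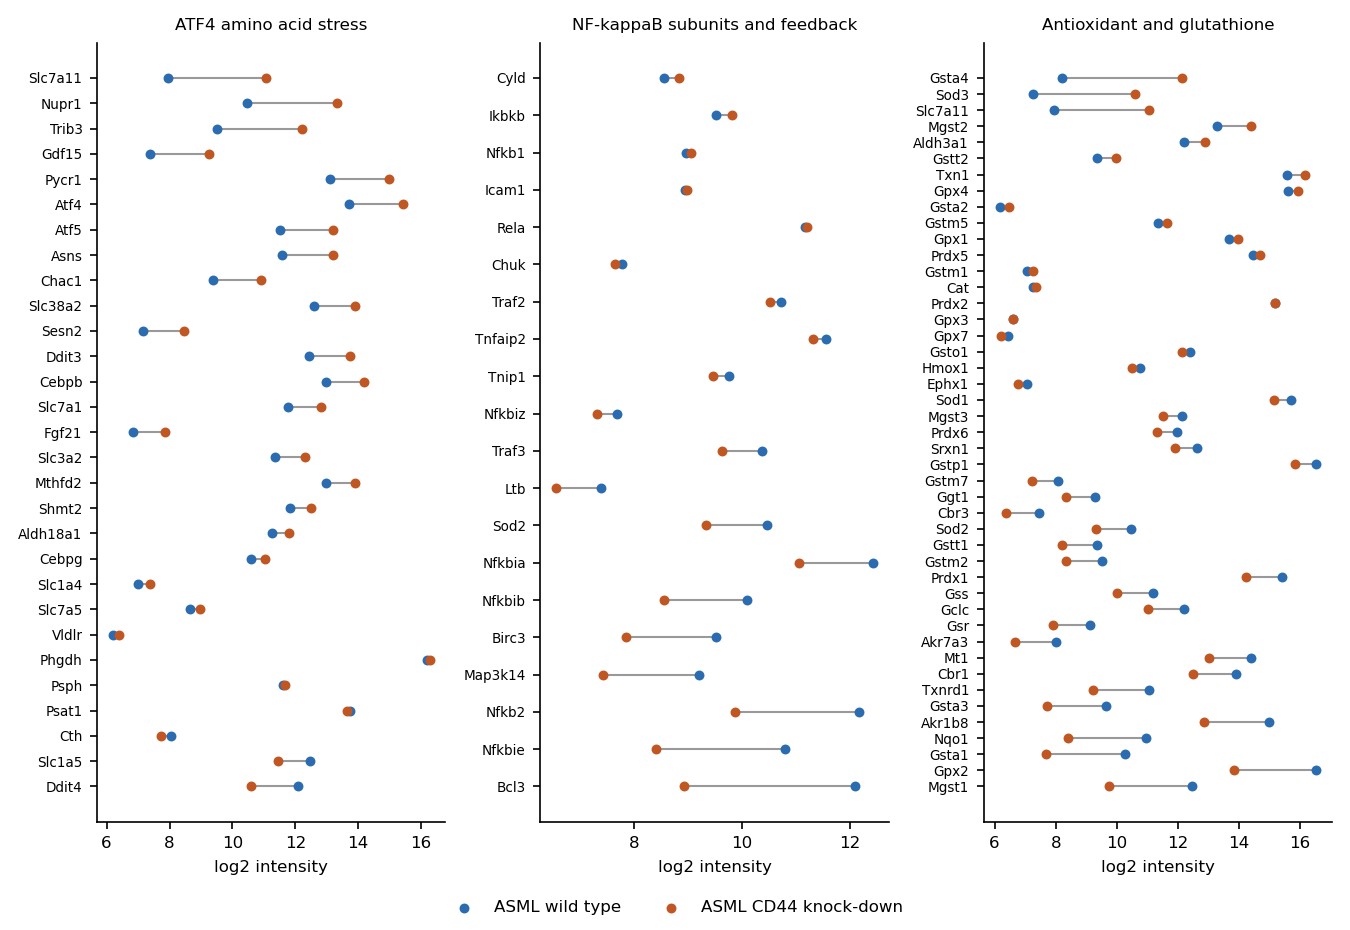
Log2 intensity (x axes, each panel with its own range) of every measured member of the ATF4, NF-kappaB and antioxidant lists, ordered by difference, with ASML wild type in blue and ASML CD44 knock-down in orange. The orange point lies to the right for most ATF4 genes (15 of 29 at least 2-fold higher) and to the left for much of the other lists (8 of 20 and 18 of 45 at least 2-fold lower).

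Of 38 measured genes of glucose use and oxygen shortage, 11 (28.9%, against 9.01% of all genes) were at least 2-fold lower and 3 higher (median -0.51). Besides Adm the lower ones included hexokinase Hk2 (10.56 and 8.33), the phosphofructokinase Pfkl (11.75 and 9.75, other probe -1.71), the pyruvate dehydrogenase kinase Pdk1 (9.70 and 7.71) and the oxygen sensor Egln3 (12.48 and 10.59). The 3 higher genes were the carbonic anhydrase Car9 (9.95 and 11.59), the angiogenic factor Vegfa (11.91 and 13.54) and Eno2 (8.91 and 10.39, other probe -0.44). Low oxygen is known to induce Car9 and Vegfa as well as Adm, Hk2 and Pdk1. Cholesterol and fatty acid synthesis had the lowest median of any list, -0.80, when dim genes were counted (among genes above log2 9 on the brighter array the NF-kappaB median, for example, was lower), with 27 of 32 genes below 0, but only 5 were at least 2-fold lower and 2 were higher. Mvd (11.23 and 9.78) and Pmvk (12.31 and 11.12) of the mevalonate pathway were lower, and the desaturase Scd2 (14.64 and 15.97) and the lipogenic factor Srebf1 (11.70 and 12.79) were higher. Subunits of oxidative phosphorylation (4 higher and 3 lower of 69, median 0.13) and cytosolic ribosomal proteins (0 and 0 of 71, median 0.00) served as a reference of abundant genes. The ribosomal proteins differed little throughout, from -0.69 to 0.72. The oxidative phosphorylation subunits had a median near 0 but ran from -1.84 to 1.70.

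Of 40 genes of DNA replication and entry into S phase, 11 (27.5%, against 9.01% of all genes) were lower and 1 higher (median -0.52). Cyclin E1, Ccne1, lay at 13.48 and 10.71, the uracil glycosylase Ung at 11.09 and 8.86, the PCNA partner Pclaf at 11.25 and 9.47 and the helicase subunit Mcm6 at 11.59 and 10.05, while the primase Prim1 was higher (10.82 and 12.03). Of 40 genes of mitosis and the kinetochore, 4 (10%) were higher and 1 (2.5%) lower (median 0.24), among the higher ones Cenpf (8.28 and 10.01, other probe 1.34) and Ndc80 (10.98 and 12.37). Whether the cultures grew at different rates is not given in the labels.

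Growth factor lists had genes on both sides. The TGF-beta and BMP list had 4 genes higher and 4 lower of 32 (12.5% each), near the 10.6% and 9.01% of all genes. Besides Ltbp1, the activin chain Inhba (6.90 and 10.57) and the BMP target Id1 (9.36 and 11.52) were higher, and Bmp7 (9.82 and 6.94) and the activin antagonist Fst (13.19 and 11.04) were lower. Among 29 receptor tyrosine kinases and ligands, 5 (17.2%) were higher and 6 (20.7%) lower. The ephrin receptor Epha2 lay at 12.35 and 14.24 (other probe 0.98), and the KIT ligand Kitlg at 6.16 and 9.73, but its 3 probes spread from 0.13 to 3.57. Among 31 immediate early genes and brakes on ERK signalling, 3 were higher (Egr1, 7.74 and 10.42; Atf3, 10.47 and 12.64; Dusp6, 13.10 and 14.73) and 3 lower. Of 28 apoptosis regulators, 9 (32.1%, against 9.01% of all genes) were lower and 2 higher, with the largest difference at the inflammatory caspase Casp4 (7.75 and 11.85), and both the death-promoting Bad (11.47 and 9.97) and Bak1 (12.03 and 10.54) and the death-restraining Birc3 and Mcl1 (11.39 and 10.12) among the lower ones. Of 15 ABC transporters, 3 were higher and 0 lower, including the drug pump Abcc1 (10.58 and 12.18, other probe 1.47). Wnt targets and stemness genes were nearly level (1 higher and 2 lower of 30, median -0.02), with the sialoglycoprotein Cd24 lower (16.21 and 14.93).

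**Figure D4:**
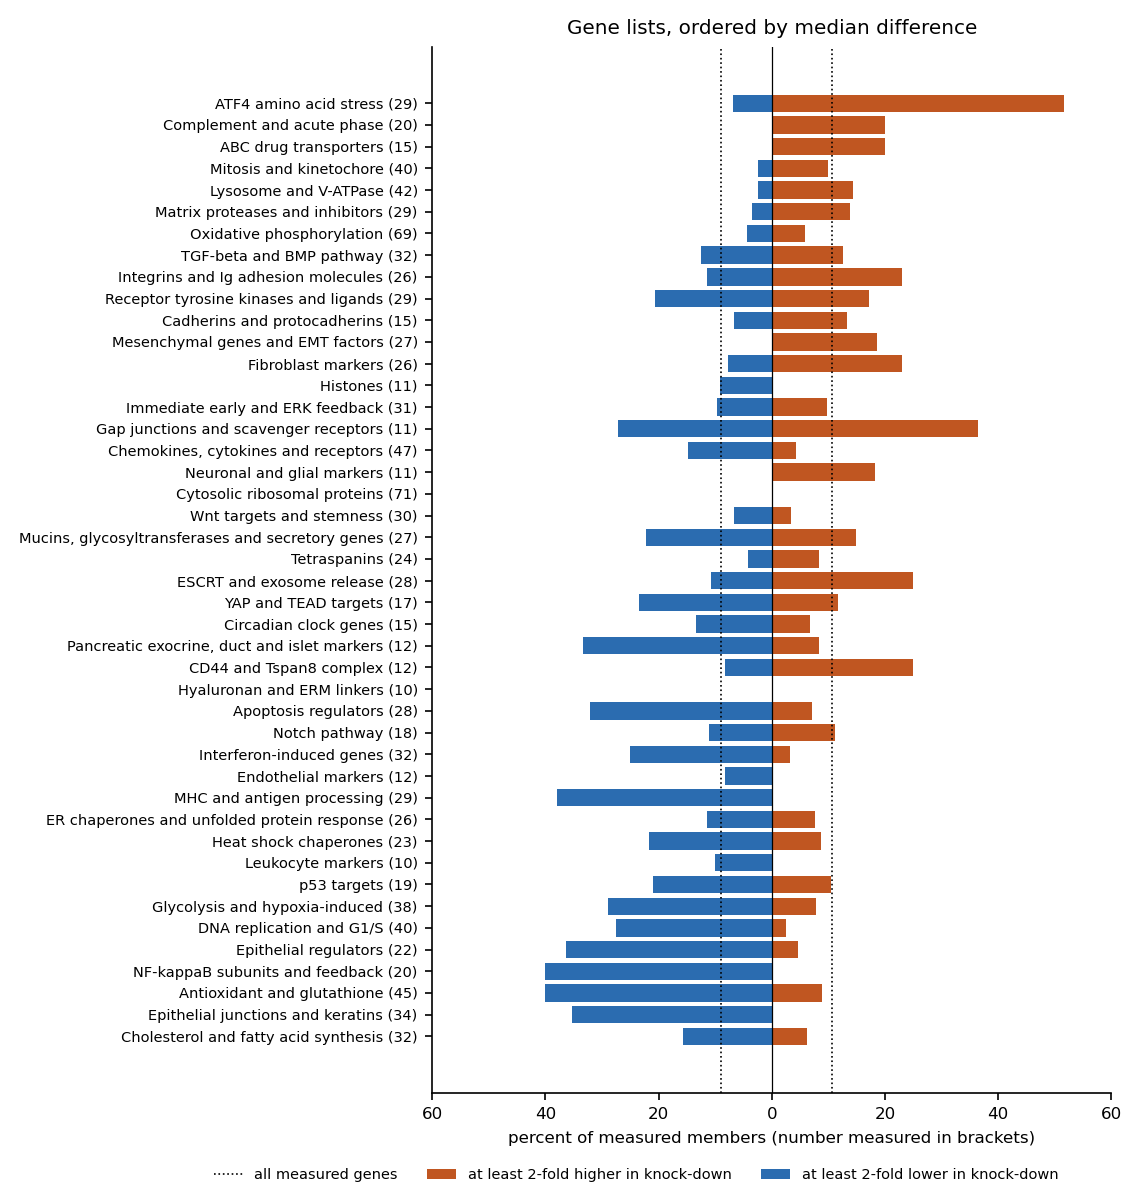
Percent of the measured members of each of the 44 lists that were at least 2-fold higher (orange, to the right) or at least 2-fold lower (blue, to the left) in the knock-down, ordered by median difference, with the number of measured members in brackets. Dotted lines mark the percentages over all genes (10.6% higher, 9.01% lower). ATF4 genes reach 51.7% higher, antioxidant and NF-kappaB genes 40% lower, and ribosomal protein genes show no bar.

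The levels on the other 9 arrays tell which ASML array stood apart. A gene was counted as standing apart where an ASML array lay at least 1 log2 beyond the lowest or highest of the other 9, and an array less than 1 log2 beyond was counted as near their range. Of the 1176 higher genes, 191 (16.2%) were low in wild type with the knock-down in or near the range of the others, and 162 (13.8%) were high in the knock-down with wild type in or near it. Of the 997 lower genes, 273 (27.4%) were high in wild type with the knock-down in or near the range, and 66 (6.62%) were low in the knock-down with wild type in or near it. Most of the rest (751 and 579) had both arrays in or near the range. The other arrays are from different cell types and from exosomes, so this is a description of level only.

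Among the genes that stood apart by a low value in wild type, Gja1 was followed by Gsta4 (8.20, others at 12.98 or more), the fibulin Efemp2 (9.64 and 13.26, others at 13.66 or more) and the amyloid precursor App (8.74 and 12.61, others at 12.52 or more). For App the knock-down value lay inside the others' range and for Gsta4 and Efemp2 just under it. Among genes that stood apart by a low value in the knock-down were Vdac2, Bcl3, Nqo1 (others 11.89 to 13.33), the adenosine kinase Adk (8.83 and 6.33, others 9.29 to 10.38), Sh2b2 (8.51 and 6.42) and the collagen crosslinker Loxl1 (9.83 and 7.17). In each of these 6 the wild type value was also below the lowest of the other 9 arrays, by less than 1 log2.

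Comtd1, Vdac2 and Adk led to a stretch of chromosome 15 that was picked after its values were seen. Of the measured genes, 6 in a row (Comtd1, Vdac2, Samd8, Dusp13b, Adk and Ap3m1) had their lowest value of all 11 arrays in the knock-down, between 6.11 and 7.04. The ASML wild type values were 11.51, 9.38, 6.91, 6.72, 8.83 and 7.31 in that order, themselves below the lowest of the other 9 arrays for each gene. The measured genes on either side, Zfp503 (6.23 and 6.52) and Vcl (6.09 and 6.17), differed by less than 2-fold, but both ASML values lay far below the other 9 arrays (11.03 to 11.75 and 9.86 to 12.90). Each of the 6 genes had 1 probe, and the cause was not tested.

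Differences also ran together over longer stretches of the gene order. For the 6900 genes above log2 9 on the brighter ASML array that have a place in the RefSeq table, the median difference was taken in windows of 41 neighbouring genes, and a run was at least 30 genes whose windows all lay at least 0.5 from the overall median. This search was added after the data had been seen, and no test of it was made. It gave 5 runs, picked by their own medians, so the counts within them are not separate results. Over the 6900 genes, 13.1% were higher and 11.7% lower. On chromosome 5, 79 genes from Sdcbp to Trmo had a median of 0.74, with 33 higher and 2 lower, and on chromosome 8, 96 genes from Acsbg1 to Mapk6 had a median of -0.77, with 2 higher and 38 lower. The others were 34 genes from Scarb2 to Slain2 on chromosome 14 (median -0.94, 0 higher and 16 lower), 50 from Cdkn2aipnl to Atpaf2 on chromosome 10 (-0.51, 5 and 13) and 34 from Men1 to Ubxn1 on chromosome 1 (-0.60, 2 and 9).

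Those runs hold some genes named above, along with others. The chromosome 14 run contains the chemokine cluster with Cxcl1, Cxcl2 and Cxcl3 but also genes of other kinds at similar differences, such as Parm1 (-2.90), Rasl11b (-2.27) and Utp3 (-1.69). The chromosome 8 run contains Aqp9, Kif23, Pclaf, Rab11a, Loxl1 and Adam10. On chromosome 5, Reck, Ndufb6 and Car9 lie within a run of higher genes, together with the water channel Aqp3 (3.43), whereas Esrp1 (-3.52) lies there against its direction. On chromosome 10 the run holds Csf2 and Irf1 among its 13 lower genes, and its 5 higher genes include Cfap144 (4.68), H2ac25 (2.69) and Srebf1 (1.09). On chromosome 1 the run holds Bad and Stip1 among its 9 lower genes, and its 2 higher genes are Men1 (2.24) and Bscl2 (1.31). With dim genes included, runs were found on chromosomes 5 and 14 alone. In the 6 other comparisons examined no run appeared. Their differences had SDs from 0.0966 to 0.751, against 1.01 for ASML, under the same limit of 0.5. With smaller spread a run is harder to reach, so this cannot tell whether such stretches are particular to ASML. EC control against RF control had 9 windows past the limit. Window medians lay between -0.05 and 0.04 for the EC pair, between -0.06 and 0.06 for the exosome pair, and between -0.43 and 0.50 for EC control against RF control, compared with -1.04 to 1.24 for ASML. What sets these stretches apart was not tested.

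**Figure D5:**
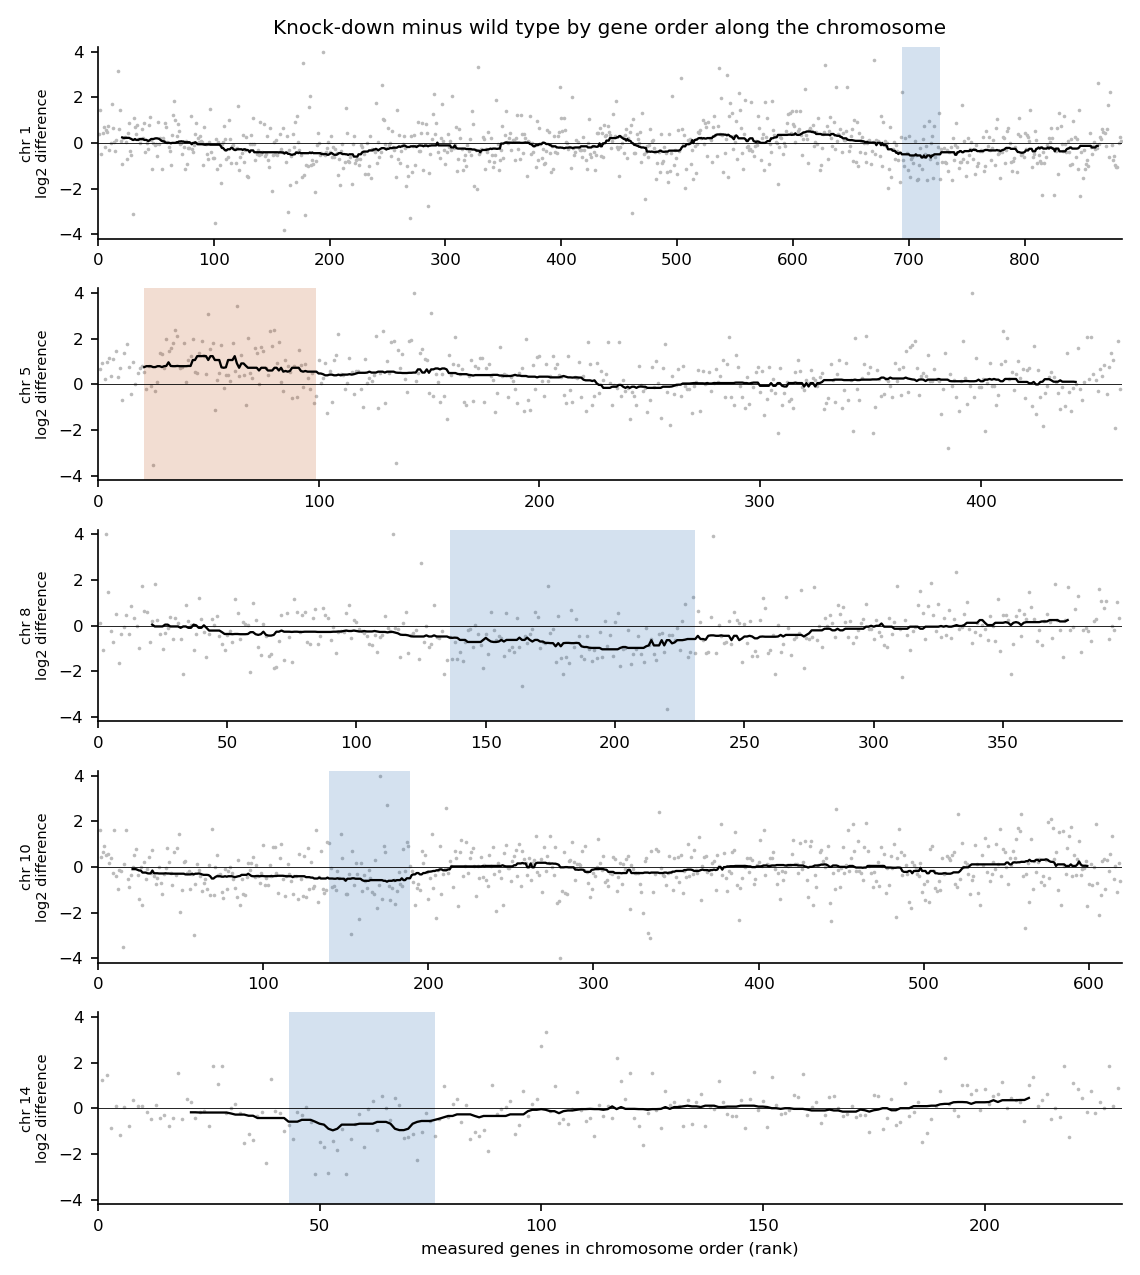
Difference between knock-down and wild type (log2, y axes) for each measured gene above log2 9 (grey points) by its rank along chromosomes 1, 5, 8, 10 and 14 (x axes), with the median of windows of 41 genes as a black line. Shading marks the 5 runs, orange for higher and blue for lower, and points beyond 4 or -4 are drawn at the edge. The line stays above 0.5 over 79 genes on chromosome 5 and below -0.5 over 96 genes on chromosome 8.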

How the data were processed

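The deposited values were intensity values on a linear scale from 1-colour Agilent arrays (dye Cy3, per the labels), and the sources used here do not give how the authors corrected background or normalized. All values are 2 to the power of a number in hundredths, and the highest value, 422913, is the same throughout. Of 30367 probes, 20369 had 1 gene symbol in the platform annotation, and 9998 had none. Symbols were updated through the RefSeq table (GRCr8), 17245 by accession, 2561 by symbol and 551 by synonym, and 12 were kept. Intensities below the 1st percentile (62.2, log2 5.96) were raised to it (0.816% of them), then log2 transformed and not normalized further. Probes stayed in where the within-array percentile, averaged over a group, exceeded 50 in at least 1 of the 9 groups (18619 kept, 11748 removed), and 5506 of those kept had no symbol (493 higher, 599 lower). A gene took its probe with the highest mean.

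Named genes were the 30 largest differences each way above log2 9, up to 4 members of each list, and the Tspan8 complex, Gja1, Cd36 and Pdpn. Other list members, and genes in runs or standing apart, were chosen after their values were seen. The members and lists were chosen with earlier results of these data known. Counting was tested on simulated data. Python 3.11.15, pandas 2.3.3, numpy 2.4.6 and matplotlib 3.10.9 were used.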

Additional observations from a re-analysis of the deposited data

How the results depend on the processing

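No paired analysis was possible because each ASML group has 1 array, and for the same reason no replicate could be left out. The 2-fold count of 3547 probes became 2318 with a filter at the 75th percentile, 7324 at 1.5-fold, 1221 at 3-fold and 642 at 4-fold. The count of 2173 genes became 4390, 758 and 380 at those folds. The share of higher calls went from 50.7% of probes and 54.1% of genes at 2-fold to 67.0% and 65.0% at 4-fold. For Cd44 the other probes gave 0.51, 1.34 and -0.11 in place of -1.26, and the mean of its probes gave 0.12. With the mean of the probes, 179 of 210 named genes moved little, 30 moved and Cd44 turned sign. A move was a shift of at least 0.144, the SD of the EC pair. Genes with 1 probe could not move in this way. Quantile normalization, centring and a floor at the 5th percentile moved none of the 210. Centring shifts every difference by the same small amount, so it could move no gene. Array medians already lay within 0.08 log2, so quantile normalization had little room to do so. Lists with a median at least 0.5 from 0 numbered 9, 6 after quantile normalization, and 19 when limited to genes above log2 9. The 5 runs of neighbouring genes became 3 with windows of 61 genes and 2 with dim genes included, alternatives added after seeing the data. A run on chromosome 5 appeared under both of these, runs on chromosomes 8 and 10 under the former and a run on chromosome 14 under the latter. The cause of these changes was not tested.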

Other observations

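Several groups not described above held bright genes that were far apart. For comparison, 10.6% of all genes were higher and 9.01% lower in the knock-down. Of 42 measured lysosomal genes, 6 (14.3%) were higher and 1 was lower (median 0.18), with the heparan sulfate enzyme Naglu at 10.10 in wild type and 11.98 in the knock-down, the peptidase Tpp1 at 9.96 and 11.80, the proton pump subunit Atp6v1h at 9.61 and 11.36 and the cholesterol transporter Npc1 at 10.49 and 12.12 (other probe 1.56). Among 27 genes of mucins and glycosylation, 4 were higher and 6 lower. The sialyltransferase St6gal1 (11.06 and 8.23) and the mucin Muc1 (9.98 and 7.80) were lower while the trefoil peptides were higher. The secretory granule protein Chgb lay at 6.78 and 10.76.

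Of 17 YAP and TEAD targets, 2 were higher and 4 lower, with Ccn1 at 11.64 and 9.75 and Ajuba at 10.96 and 12.28. Of 19 p53 targets, 2 were higher and 4 lower, and the Gadd45 genes split: Gadd45b lay at 13.60 and 11.67, Gadd45g at 11.65 and 9.99, and Gadd45a at 11.67 and 12.73. Of 18 Notch pathway genes, 2 were higher, the ligands Jag1 (9.49 and 10.60) and Jag2 (10.31 and 11.73, other probe 1.00), and 2 were lower, among them the receptor Notch4 (9.04 and 7.05). Among 23 cytosolic chaperones, 5 were lower and 2 higher (median -0.35). Hsph1 lay at 11.62 and 9.82 and Stip1 at 12.87 and 11.26, while Hspa4l lay at 7.62 and 9.66. Of 15 circadian clock genes, 1 was higher, Per2 (7.40 and 9.43), and 2 were lower, among them Nr1d1 (9.07 and 7.40). The linker histone H1f1 was the 1 of 11 measured genes of the histone list past 2-fold (10.71 and 8.15). H2ac25, a histone gene outside the list, was higher by 2.69. The cell cycle inhibitor Cdkn2b lay at 10.98 and 13.03 (other probe 1.52) and its neighbour Cdkn2a at 14.88 and 15.75, both between 6.13 and 7.32 on the other 9 arrays. The Cdkn2 genes were chosen after their values were seen.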
